A study of Mus musculus with 10 samples.

Results

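The genes described here are 10 genes of the NF-κB pathway, chosen by name: the subunit genes Nfkb1, Nfkb2, Rel, Relb and Rela, the feedback inhibitors Nfkbia and Tnfaip3, the receptor-signalling and survival genes Birc3 and Traf1, and the ligand gene Ltb. They were chosen with earlier results of these data known. Of these, 9 genes were represented, among 8252 genes with a probe set of their own, by 12 of the 12488 probe sets of the MG_U74Av2 oligonucleotide array, and each of the 12 was annotated to a single gene. Nfkb1 was not analysed here. The series comprised 10 arrays of total RNA from mouse thymus. The 6 tumour arrays carried RNA from advanced thymic tumours of mice homozygous for the hypomorphic Ikaros allele IkL (IkL/L), for which neither age nor strain was given. The 2 IkL/L arrays and the 2 wild-type (WT) arrays carried RNA from unfractionated thymocytes of 3-week-old mice on a C57Bl6 background. Tumours and IkL/L thymocytes therefore share the IkL/L genotype, which every cell of the animal carries, while the tumours may differ from both thymocyte groups in age and strain as well as in tissue state, and these cannot be told apart. Nothing in the labels says whether each tumour is from a different mouse, so the p-values below measure only the spread between arrays.

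Ikaros is a zinc-finger DNA-binding protein of lymphoid cells, and mice with reduced Ikaros activity develop thymic T-cell tumours. NF-κB transcription factors are dimers of Rel-family proteins that inhibitor proteins such as IκBα hold in the cytoplasm until receptors of the TNF and antigen-receptor type activate the IκB kinases. In the thymus NF-κB is best known for its roles in the survival of developing T cells and in the medullary epithelium, which receives lymphotoxin signals from thymocytes. Several pathway inhibitors and survival genes are themselves NF-κB targets, so that their mRNA is often read as an output of the pathway.

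The windows just upstream of the transcription starts are shown because several members are textbook NF-κB targets, and the windows let the reader see where the 10-base κB consensus is present. The sequences are those of RefSeq on the GRCm38.p6 assembly, 5′ to 3′ on the strand of the gene, 130 bases ending at the base before the annotated start, with κB matches in capitals. They lie at chr17:35194377-35194506 on the plus strand for Ltb, chr12:55492648-55492777 on the minus strand for Nfkbia, chr10:19015411-19015540 on the minus strand for Tnfaip3 and chr19:46304607-46304736 on the plus strand for the first listed start of Nfkb2. The windows of Traf1, at chr2:34961773-34961902, and Birc3, at chr9:7873171-7873300, both on the minus strand, are shown beside them.
Ltb: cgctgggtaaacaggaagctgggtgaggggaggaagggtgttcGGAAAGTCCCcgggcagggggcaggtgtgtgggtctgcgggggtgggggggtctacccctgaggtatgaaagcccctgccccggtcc
Nfkbia: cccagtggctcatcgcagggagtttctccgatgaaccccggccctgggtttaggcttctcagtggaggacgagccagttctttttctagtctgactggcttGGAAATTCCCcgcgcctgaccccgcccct
Tnfaip3: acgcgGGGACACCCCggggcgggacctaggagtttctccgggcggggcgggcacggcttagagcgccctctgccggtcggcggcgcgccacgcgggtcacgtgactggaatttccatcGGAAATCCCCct
Nfkb2: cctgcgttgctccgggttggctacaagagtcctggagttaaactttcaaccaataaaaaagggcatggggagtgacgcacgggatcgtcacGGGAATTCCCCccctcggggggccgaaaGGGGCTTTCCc
Traf1: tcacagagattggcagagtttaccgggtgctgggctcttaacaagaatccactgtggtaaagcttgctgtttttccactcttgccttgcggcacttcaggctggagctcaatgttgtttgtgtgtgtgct
Birc3: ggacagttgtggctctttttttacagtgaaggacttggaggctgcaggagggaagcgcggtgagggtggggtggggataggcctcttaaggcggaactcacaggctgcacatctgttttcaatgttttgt

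Positions are counted from the start, with -1 as the base before it. Ltb had 1 match, from -87 to -78, and Nfkbia had 1, from -29 to -20. Tnfaip3 had 2 matches in this window, from -125 to -116 and from -12 to -3. Nfkb2 had an 11-base stretch that held overlapping matches on both strands, from -39 to -29, and another match from -11 to -2. No match was present in the windows of Traf1 and Birc3, which says only that these letters are not in those windows. Over the longer windows of the RefSeq table, from 250 bases before to 50 bases after a start, and counting both strands, 5 of the 8 members with an entry had a match (Ltb, Nfkbia, Tnfaip3, Nfkb2 and Rel) and 3 had none (Traf1, Birc3 and Rela). Among all genes of the table, 5.14% had a match in at least 1 such window. A match is a description of the letters and does not show that a factor binds there.

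**Figure D1:**
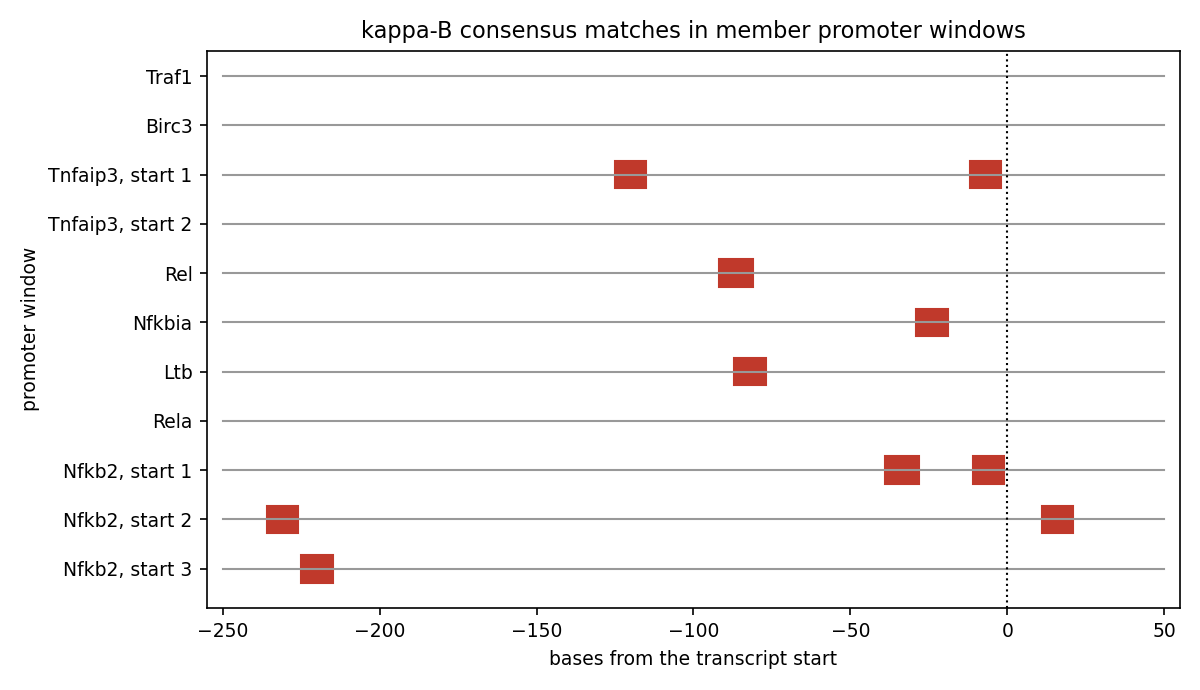
Positions of κB consensus matches around the annotated transcription starts of the member genes, with the distance from the start in bases on the horizontal axis and 1 line per annotated start. The windows of Traf1, Birc3 and Rela and that of the second Tnfaip3 start hold no match. The first Tnfaip3 start has 2 stretches with a match, and the 3 Nfkb2 starts have 2, 2 and 1. The stretch of the third Nfkb2 start is the same genomic site as 1 of those of the second.

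The values are the authors' probe-set intensities, which had the same trimmed mean on every array, and they compare 1 probe set between arrays but not different probe sets with each other. Intensities under 16 were raised to 16, a floor that lies at the 20th percentile of the whole table, and differences are given on the log2 scale. A probe set entered the tests when 2 or more arrays had it above their own median intensity, which held for 7172. The tests were limma's moderated test fitted on all 10 arrays, with Benjamini-Hochberg adjustment over the 7172, and a probe set was called at an adjusted p under 0.05. The number of arrays, 2 per thymocyte group, limits the precision of all values. Of the 12 member probe sets 9 were tested, for 8 genes, and the other 3, for Rel and for a second probe set each of Relb and Rela, were above the median of no array.

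Across the tested members, tumours had lower mean log2 intensity than all thymocytes (the mean of the IkL/L and WT group means) on 9 of 9 probe sets, with a median difference of -0.81, against -0.03 over all tested probe sets. After adjustment 3 of the 9 were called lower and 0 higher. Among all 7172 tested probe sets, 2.79% were called lower in this comparison. Because the members were chosen with earlier results known, their counts cannot be read as an unbiased excess over such shares. The 3 called member probe sets were those of Traf1, Ltb and Birc3. The Traf1 probe set passed the filter only through 3 thymocyte arrays and so had to differ, and without it 2 of 8 probe sets were called and the median was -0.74. Against IkL/L thymocytes alone (background 0.516%) and against WT thymocytes alone (background 0.878%) Traf1 was the 1 member called lower, and without it 0 of 8 were called in either comparison. Without Traf1, every tumour lay below every thymocyte array on 2 of 8 probe sets, those of Ltb and Birc3, as did 5.33% of all tested probe sets. Against the IkL/L arrays alone this held for 4 of 8 (12.1% of all tested) and against the WT arrays alone for 4 of 8 (8.76%). The tumour arrays are the same in these 3 comparisons, so their counts are not independent of each other.

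**Figure D2:**
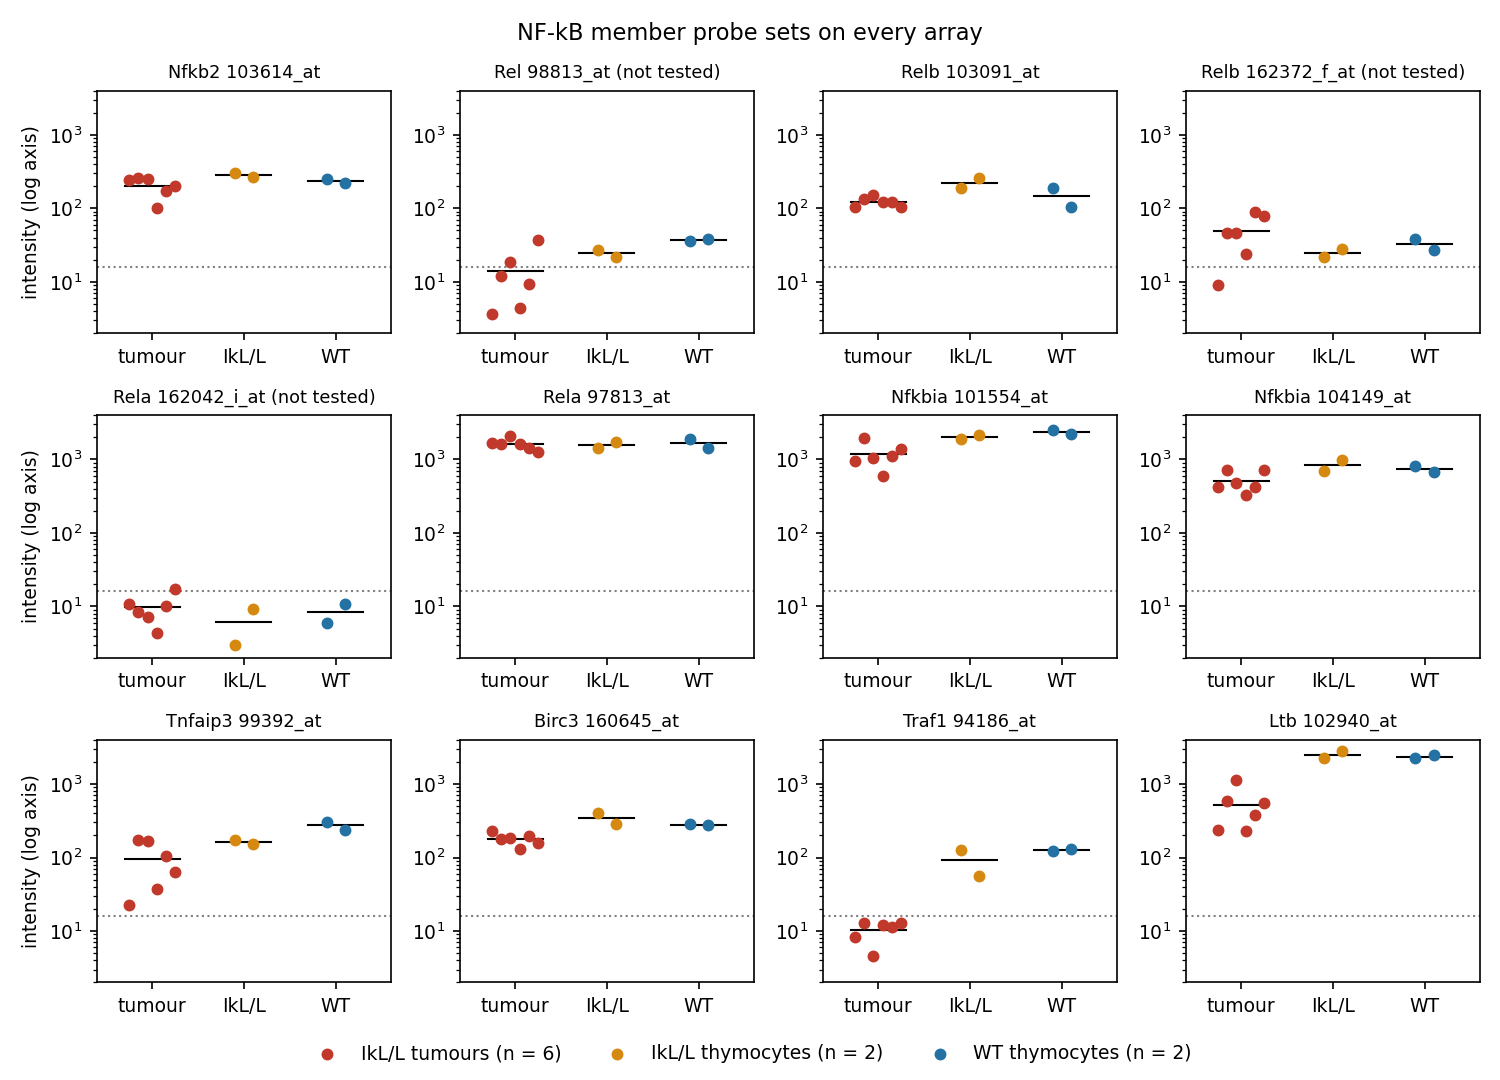
Intensity of the 12 member probe sets on each of the 10 arrays, on a log axis, with 1 point per array, a black line at the mean of each group and a dotted line at the floor of 16. The Traf1 points of all 6 tumours lie under the floor, and the Ltb and Birc3 points of the tumours lie below those of every thymocyte array.

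Among the subunits, none of the tested probe sets was called in any comparison. Rela encodes the main transactivating subunit of the canonical pathway. Its probe set 97813_at had a lowest, median and highest intensity of 1276.7, 1614 and 2073 in tumours, 1413.7 and 1743.2 in IkL/L thymocytes, against 1916.7 and 1412.5 in WT thymocytes. The 3 groups overlapped, and the tumour difference from all thymocytes was -0.01 ± 0.18 (SE), with a 95% interval of -0.42 to 0.39 and an adjusted p of 0.970 from limma. Its direction turned under 5 of the 23 alternative fits of this comparison.

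Relb encodes the subunit that acts mainly in the non-canonical pathway. On probe set 103091_at the tumours had a lowest, median and highest intensity of 103, 123 and 151. The IkL/L thymocytes had 189 and 257, and the WT thymocytes 190 and 105. All tumours lay below both IkL/L arrays but overlapped with the WT arrays, 1 of which was as low as the lowest tumours. The difference from all thymocytes was -0.53 ± 0.21 (95% interval -1.0 to -0.061, limma adjusted p 0.167), and that from IkL/L thymocytes was -0.85 ± 0.27 (limma adjusted p 0.135).

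Nfkb2 encodes the precursor of the non-canonical DNA-binding subunit and is itself a κB target. Its probe set 103614_at had a lowest, median and highest intensity of 102, 221 and 256 in tumours, 300.5 and 269.9 in IkL/L thymocytes, against 251 and 222 in WT thymocytes. Tumour 4 stood lowest, and tumours 1, 2 and 3, at 240.4, 256.1 and 247.9, lay within or just above the WT range. The difference from all thymocytes was -0.42 ± 0.27 (95% interval -1.01 to 0.17, limma adjusted p 0.361).

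Rel encodes c-Rel, a subunit prominent in activated lymphocytes. Its probe set 98813_at stayed near the floor, with a lowest, median and highest intensity of 3.70, 10.8 and 37.4 in tumours, 27.4 and 21.5 in IkL/L thymocytes, against 35.9 and 38.5 in WT thymocytes. In tumours 4 of 6 values were under the floor, and no value of either thymocyte group was. When the filter was dropped its difference from all thymocytes was -0.67 ± 0.26, which did not pass the threshold (limma adjusted p 0.237). The second Relb probe set, 162372_f_at, ranged from 9.20 to 90.3 in tumours and from 21.8 to 38.0 over the 4 thymocyte arrays, and the second Rela probe set, 162042_i_at, from 4.40 to 17.4 in tumours and from 3.00 to 10.8 in thymocytes. These dim probe sets give little information on their genes.

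Nfkbia encodes IκBα, the inhibitor whose resynthesis ends a canonical response. Probe set 101554_at had a lowest, median and highest intensity of 586, 1080 and 1954 in tumours, 1872 and 2158 in IkL/L thymocytes, against 2532 and 2215 in WT thymocytes. Every tumour except tumour 2 lay below all 4 thymocyte arrays. The difference from all thymocytes was -0.99 ± 0.29 (95% interval -1.65 to -0.34), with a limma adjusted p of 0.0767. The second probe set, 104149_at, had a lowest, median and highest intensity of 330, 450 and 711 in tumours, 694 and 971 in IkL/L thymocytes, against 807 and 680 in WT thymocytes. Tumours 2 and 6 reached the WT range on it, and the difference was -0.67 ± 0.25 (95% interval -1.23 to -0.11, limma adjusted p 0.148). Both probe sets gave the same direction, and neither was called.

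Tnfaip3 encodes A20, a ubiquitin-editing enzyme that limits signalling from TNF and antigen receptors. Probe set 99392_at had a lowest, median and highest intensity of 22.6, 84.3 and 175 in tumours, 171 and 152 in IkL/L thymocytes, against 308 and 239 in WT thymocytes. Tumours 1 and 4, at 22.6 and 37.2, were near the floor, whereas tumours 2 and 3, at 174.8 and 165.8, lay within the range of the IkL/L arrays or next to it. The tumour values spanned 7.73-fold, the widest span of the tested members. The difference from all thymocytes was -1.50 ± 0.56 (95% interval -2.74 to -0.26), and it was not called (limma adjusted p 0.142).

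Birc3 encodes an inhibitor-of-apoptosis ubiquitin ligase that is recruited to TNF receptor complexes. Probe set 160645_at had a lowest, median and highest intensity of 130, 180 and 230 in tumours, 398 and 287 in IkL/L thymocytes, against 286 and 275 in WT thymocytes. All 6 tumours lay below all 4 thymocyte arrays. The mean was 178 ± 33.9 in tumours (SD, n = 6) and 312 ± 57.9 in all thymocytes (SD, n = 4). The difference of -0.81 ± 0.19, or 1.76-fold lower in tumours, was called with a limma adjusted p of 0.0372. The call was lost without the filter (adjusted p 0.0533) and in 8 of the 10 fits that each left out 1 array, with adjusted p between 0.0515 without tumour 4 and 0.151 without IkL/L array 1. Against IkL/L thymocytes the difference was -0.95 ± 0.24 (limma adjusted p 0.0858) and against WT thymocytes -0.68 ± 0.24 (limma adjusted p 0.210).

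Traf1 encodes an adaptor that binds TNF receptor complexes and Birc-family ligases, and it is a well-known κB target in lymphocytes. Probe set 94186_at had a lowest, median and highest intensity of 4.6, 11.7 and 12.8 in tumours, 128 and 56.5 in IkL/L thymocytes, against 121 and 130 in WT thymocytes. All 6 tumours were under the floor and all 4 thymocyte arrays were above it. Traf1 was at least 6.45-fold lower in tumours than in all thymocytes, on values set to the floor (limma adjusted p 0.000455). Because every tumour entered at the floor, the spread among tumours entered the test as 0. Against WT thymocytes alone it was at least 7.84-fold lower (limma adjusted p 0.000981) and against IkL/L thymocytes alone at least 5.31-fold lower (limma adjusted p 0.00483).

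Ltb encodes lymphotoxin beta, a membrane ligand through which thymocytes signal to epithelial and stromal cells. Probe set 102940_at had a lowest, median and highest intensity of 230, 460 and 1134 in tumours, 2248 and 2771 in IkL/L thymocytes, against 2243 and 2445 in WT thymocytes. Tumours 1 and 4 were lowest and tumour 3 was highest, and all 6 lay below every thymocyte array. The mean was 519 ± 337 in tumours (SD, n = 6) and 2427 ± 248 in all thymocytes (SD, n = 4). The difference of -2.45 ± 0.42, or 5.46-fold lower in tumours, had a limma adjusted p of 0.0101. Against either thymocyte group alone the size was similar and the threshold was just missed: -2.50 ± 0.53 against IkL/L thymocytes (limma adjusted p 0.0519) and -2.40 ± 0.53 against WT thymocytes (limma adjusted p 0.0535). The arrays are of bulk RNA, in which fewer cells of a type and less RNA per cell cannot be told apart.

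**Figure D3:**
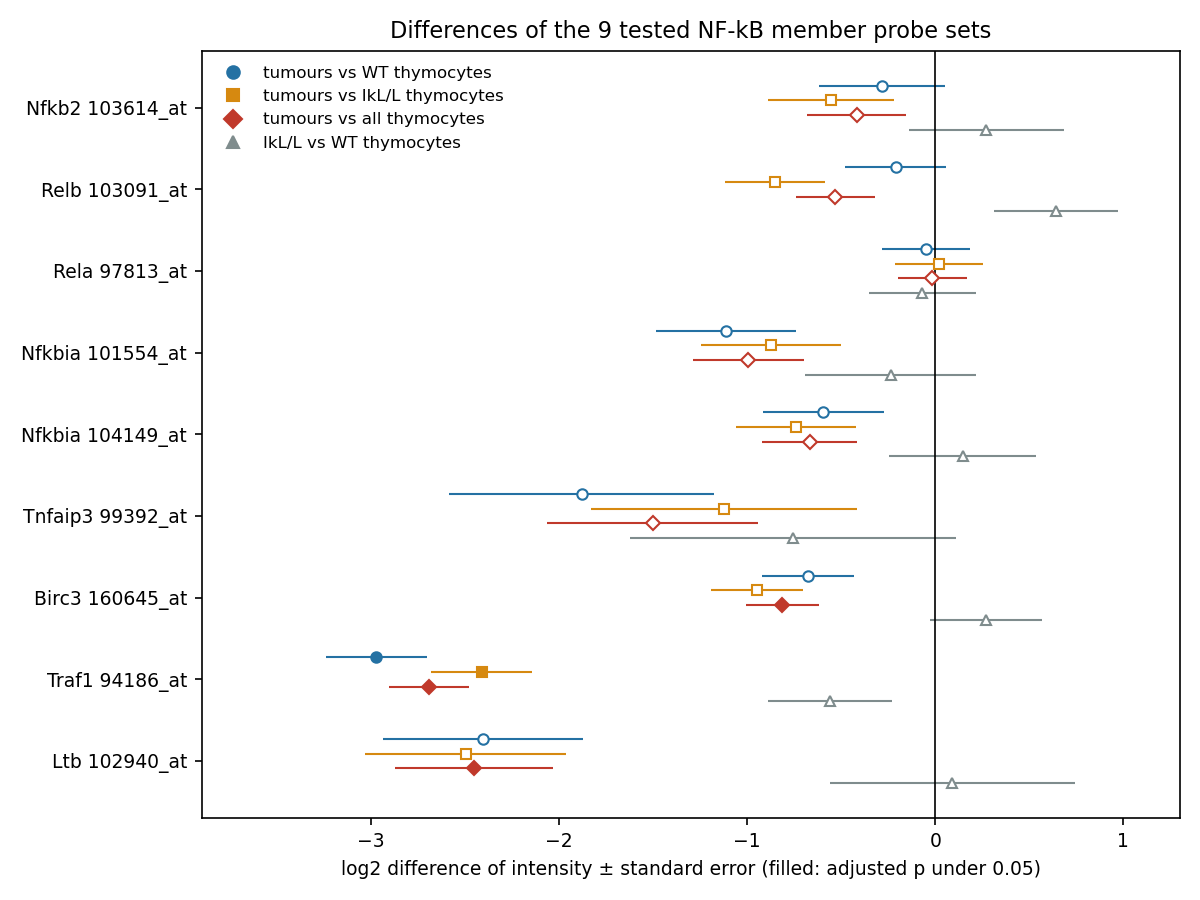
Difference of mean log2 intensity for the 9 tested member probe sets in the 4 comparisons, with standard errors as bars and filled symbols where the adjusted p was under 0.05. Traf1 is filled in all 3 tumour comparisons, Ltb and Birc3 are filled only against all thymocytes, and no IkL/L against WT symbol is filled.

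The arrays carried a chip lot, a hybridization day and a fluidics module in the scanner records, and tumours 1 to 5 were on a different lot from tumour 6 and the 4 thymocyte arrays. Within the shared lot, which leaves tumour 6 as the only tumour, Traf1 differed by -2.69 (limma adjusted p 0.115), Ltb by -2.15 (0.0551) and Birc3 by -0.98 (0.196). Within the shared day, which holds tumours 4 and 6, the differences were -2.69 for Traf1 (limma adjusted p 0.0510), -2.77 for Ltb (0.0544) and -1.11 for Birc3 (0.148). With lot as a block, which sets tumour 6 alone against the thymocytes, Ltb (limma adjusted p 0.261) and Birc3 (0.239) were not called. With day as a block, which sets only tumours 4 and 6 against the thymocytes, Ltb was called (limma adjusted p 0.0256) and Birc3 (0.0632) was not. With module as a block Ltb was called (limma adjusted p 0.0496) and Birc3 (0.0945) was not. The limma adjusted p of Traf1 was 0.0265 with the lot block, 0.0119 with the day block and 0.00362 with the module block, but these rest on a filter that fixed its direction and on floored tumours that add a spread of 0. With run, a set of arrays hybridized within minutes of each other, as a block the difference was -2.61 for Traf1 (limma adjusted p 0.213), -2.67 for Ltb (0.359) and -1.16 for Birc3 (0.491). The only run with both tumours and thymocytes held tumours 4 and 6 and WT array 1. The run block therefore did not set the other tumours against thymocytes, and the IkL/L arrays entered it only through WT array 2.

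The tumours did not hold the members at 1 common level. Without Traf1, 8 probe sets could be ranked over the 6 tumours, and tumour 4 was lowest on 5 of them, while tumours 2 and 3 were each highest on 3. Relative to the mean of the 4 thymocyte arrays, tumour 4 was at -3.39 for Ltb, -2.49 for Tnfaip3 and -1.90 for Nfkbia probe set 101554_at, on the log2 scale. Tumour 2 was at -2.03 for Ltb, -0.26 for Tnfaip3 and -0.16 for the same Nfkbia probe set, and tumour 1 at -3.35, -3.21 and -1.21. The array of tumour 4 had the lowest median intensity of the 10 arrays, 79.8, against 90.6 to 113 on the others, and the part of this in its low values was not tested. Birc3 lay between -0.42 in tumour 1 and -1.25 in tumour 4, and Ltb between -1.09 in tumour 3 and -3.39 in tumour 4.

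**Figure D4:**
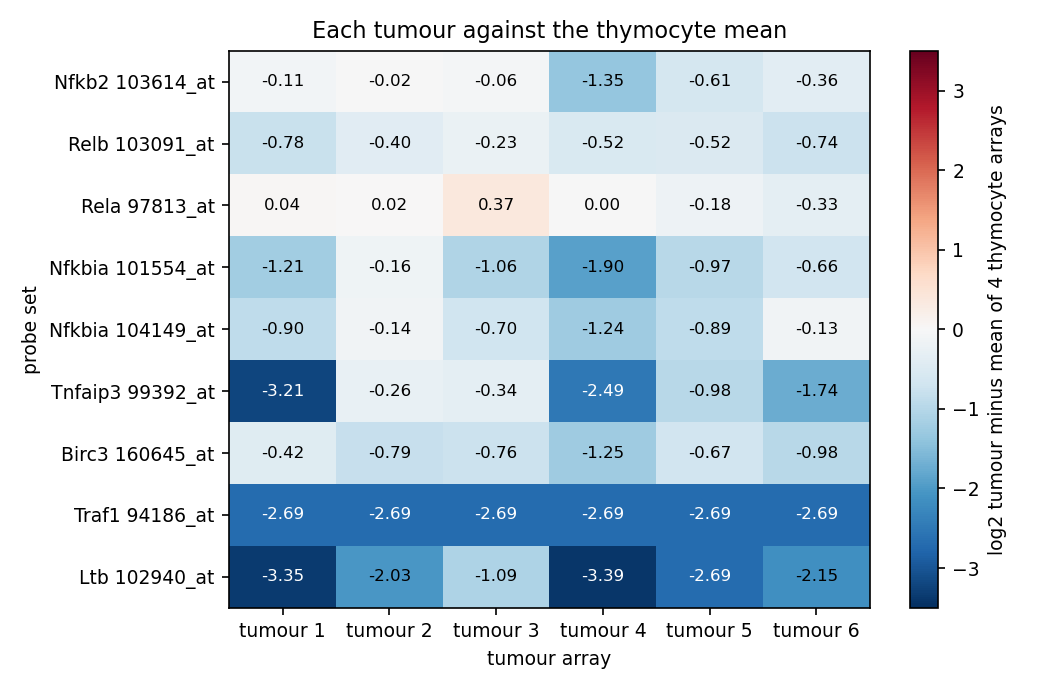
Log2 difference of each tumour from the mean of the 4 thymocyte arrays for the 9 tested member probe sets, as a colour map with 1 row per probe set, 1 column per tumour and the value printed in each cell. Tumours 1 and 4 are lowest for Ltb and Tnfaip3, and all tumours have the same value for Traf1 because they are at the floor.

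No member was called between IkL/L and WT thymocytes. None of the 9 tested member probe sets had an unadjusted p under 0.05 there, and the median difference was 0.09, against 0.03 over all tested probe sets. In the whole table limma called 1 probe set, or 0.0139%, in this comparison, and 3.21% had an unadjusted p under 0.05. Ltb averaged 2510 ± 370 in IkL/L and 2344 ± 143 in WT thymocytes (SD, n = 2 each), a difference of 0.09 ± 0.65. Relb had the largest positive difference of the members, 0.64 ± 0.33 (limma adjusted p 0.999), and Tnfaip3 the largest negative one, -0.75 ± 0.87. With 2 arrays a group these intervals are wide, and equal levels are not shown.

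The other genes of the pathway were taken from a list of 89 genes in 6 classes, of which 72 were on the array and 55 were tested, 1 probe set per gene. This list too was chosen with earlier results of these data known. Between tumours and all thymocytes limma called 7 lower and 3 higher, where 2.79% of all tested probe sets were called lower and 3.49% higher. Of the 55, 7 passed the filter only through tumours or only through thymocytes and so had to differ, among them the called genes Lta, Ccr7 and Gadd45b, passed by thymocytes, and Cxcl13, passed by tumours. Without them 4 of 48 were called lower and 2 higher. A negative difference was found for 39 of the 55, with a median of -0.23 against -0.03 over all tested probe sets. Against IkL/L thymocytes 2 were called lower and 1 higher (0.906% of all tested were called higher), against WT thymocytes 4 lower and 1 higher (1% of all tested were called higher), and between IkL/L and WT thymocytes 0 of 55. Without the 7 genes, 1 of 48 was called lower and 0 higher against IkL/L thymocytes, and 3 of 48 lower and 0 higher against WT thymocytes.

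Of 4 tested ligand genes 1 was called lower, Lta, which encodes lymphotoxin alpha, the partner of lymphotoxin beta. Its direction was fixed by the filter, which it passed only through thymocytes. Probe set 102630_s_at had 19.0, 20.4, 91.3, 18.6, 22.3 and 85.2 in tumours 1 to 6, against 218 and 159 in IkL/L thymocytes, against 291 and 208 in WT thymocytes. Tumours 3 and 6 stood above the other 4 tumours, and all 6 lay below the thymocytes. The difference was -2.71 ± 0.53 (limma adjusted p 0.0173), and the call was lost in 11 of 22 alternative fits. Within the lot that tumour 6 shares with the thymocytes the difference was -1.33 (limma adjusted p 0.164). Cd70, a ligand of T-cell costimulation, differed by -0.83 (limma adjusted p 0.238), and Tnfsf11, which encodes the ligand RANKL, by 0.63 (limma adjusted p 0.586).

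Of 8 tested receptor genes 3 were called lower. Tnfrsf1a, a receptor for TNF, averaged 228 ± 73.3 in tumours (SD, n = 6) and 607 ± 68.4 in all thymocytes (SD, n = 4), a difference of -1.46 ± 0.25 (limma adjusted p 0.0091). Tnfrsf18, which encodes the costimulatory receptor GITR, averaged 289 ± 56.5 in tumours and 659 ± 101 in all thymocytes, a difference of -1.20 ± 0.20 (limma adjusted p 0.0082). Tnfrsf4, which encodes the costimulatory receptor OX40, had 22.8, 159.2, 25.8, 53.7, 29.5 and 28.5 in tumours 1 to 6, against 190 and 219 in IkL/L thymocytes, against 237 and 174 in WT thymocytes. Tumour 2 was the tumour nearest to the thymocytes, and the difference was -2.34 ± 0.50 (limma adjusted p 0.0263). This call was lost without the filter (adjusted p 0.0768), with lot, day, module or run as a block, and in 6 of 10 fits that left out 1 array, where the adjusted p reached 0.0941 without WT array 1. The calls of Tnfrsf1a and Tnfrsf18 were lost with lot, day or run as a block and within the shared lot or day.

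None of the 10 adaptor and ligase genes, 7 kinase and CARD-complex genes or 6 inhibitor genes was called between tumours and all thymocytes. Traf2, a scaffold for Traf1 and Birc-family ligases, averaged 569 ± 68.5 in tumours and 809 ± 45.7 in all thymocytes without overlap, a difference of -0.51 ± 0.15 (limma adjusted p 0.0719). Irak1, a kinase of interleukin-1 and Toll-like receptor signalling, differed by 0.68 ± 0.25 (limma adjusted p 0.132) and Traf4 by -0.62 ± 0.35 (0.308). Bcl10 of the antigen-receptor CARD complex differed by -0.53 ± 0.18 (limma adjusted p 0.111), the IκB kinase gene Ikbkb by 0.28 ± 0.19 (0.398) and the T-cell kinase gene Prkcq by -0.45 ± 0.32 (0.418). Differences were negative for 6 of 6 inhibitor genes, with a median of -0.37. Among them Tnip1, which encodes an A20-binding protein, differed by -0.57 ± 0.18 (limma adjusted p 0.0898), Tollip by -0.55 ± 0.22 (0.160) and Tank by -0.47 ± 0.30 (0.363).

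Of 20 tested target genes 3 were called lower and 3 higher, and their median difference was -0.05. Among the called targets, Ccr7, Gadd45b and Cxcl13 had their direction fixed by the filter. Ccr7, a chemokine receptor of mature thymocytes, averaged 39.6 ± 23.0 in tumours (SD, n = 6, 1 at the floor) and 305 ± 84.5 in all thymocytes (SD, n = 4), a difference of -3.06 ± 0.41 (limma adjusted p 0.00308). Bcl2l1, which encodes the survival protein Bcl-xL, averaged 420 ± 143 in tumours and 1286 ± 84.0 in all thymocytes, a difference of -1.67 ± 0.24 (limma adjusted p 0.00389). The calls of both genes were lost with lot or run as a block and within the shared lot, that of Bcl2l1 also with day as a block and within the shared day, and that of Ccr7 also with day as a block without tumour 6. Cxcl13, a B-cell attracting chemokine made by stromal and myeloid cells, had 778.8, 216.6, 46.4, 229.0, 628.1 and 324.0 in tumours 1 to 6 and at most 7.2 on any thymocyte array. All 4 thymocyte arrays were under the floor, so that Cxcl13 was at least 16.7-fold higher in tumours (limma adjusted p 0.00804), a call lost with lot or run as a block. The 3 other called targets, named here because they complete the count, were Gadd45b at -1.65 (limma adjusted p 0.0304), Ccnd1 at 1.93 (0.0208) and Sod2 at 0.82 (0.0465).

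**Figure D5:**
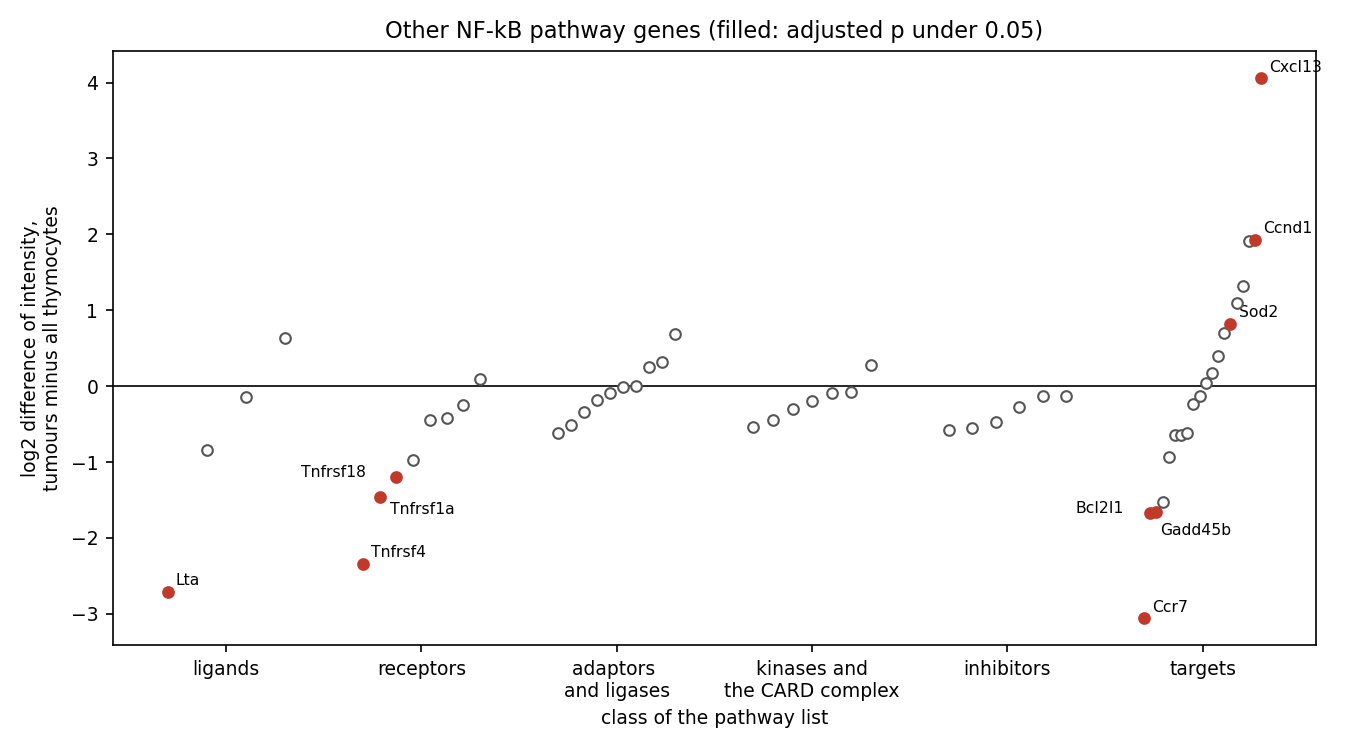
Log2 difference of mean intensity, tumours minus all thymocytes, for the 55 tested pathway genes other than the members, by class. Filled points have an adjusted p under 0.05 and are named; receptors and ligands are filled only below 0, and targets are filled on both sides of it.

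Marker genes of the cell types that a thymus can hold moved in both directions between tumours and all thymocytes. Among all tested probe sets 2.79% were called lower and 3.49% higher in that comparison. The summed intensity of 11 thymocyte markers was 30744 to 47105 in tumours, 60250 to 66349 in IkL/L thymocytes and 63850 to 70833 in WT thymocytes, so that thymocyte marker RNA was present in every tumour. Of these, 3 were called lower and 1 higher. The 5 markers of mature single-positive thymocytes, among them Ccr7, summed to 981 to 2410 in tumours, 2920 to 3177 in IkL/L thymocytes and 2419 to 2742 in WT thymocytes, and 2 of 3 tested were called lower. Ccr7 passed the filter only through thymocytes and so had to differ. The markers of epithelium, 9 genes, summed to 458 to 1183 in tumours, 1632 to 5580 in IkL/L thymocytes and 3871 to 5450 in WT thymocytes, and 4 of 5 tested were called lower. Among these Krt8, Krt18 and Ccl25 passed the filter only through thymocytes, so their direction was fixed by it. The 10 dendritic-cell markers summed to 1863 to 5381 in tumours, 5892 to 6774 in IkL/L thymocytes and 4827 to 7097 in WT thymocytes, with none of 8 tested called. The 7 B-cell markers summed to 522 to 773 in tumours, 849 to 1182 in IkL/L thymocytes and 729 to 1028 in WT thymocytes, with 1 of 6 tested called lower, and the 6 neutrophil markers to 197 to 3500 in tumours, 1201 to 4423 in IkL/L thymocytes and 1084 to 2560 in WT thymocytes, with none of 5 tested called. The 10 macrophage markers summed to 8641 to 18580 in tumours, 3189 to 3659 in IkL/L thymocytes and 3073 to 3114 in WT thymocytes, with 6 of 8 tested called higher, and the 10 stromal and endothelial markers to 1845 to 3155 in tumours, 1458 to 2091 in IkL/L thymocytes and 966 to 1522 in WT thymocytes, with 5 of 9 called higher. In the stromal and endothelial list Dcn, Mgp, Vwf and Pdgfrb passed the filter only through tumours and so had to differ. Each sum is carried by its brightest probe sets, such as Apoe for macrophages, Ctsl for epithelium and, in tumour 1, Il7r for mature single-positive thymocytes. The macrophage marker Fcgr3 went the other way and was lower in every tumour than on any thymocyte array. Other markers did not follow their list either. Col1a2 of the stromal list ranged from 445.5 to 833.4 in tumours and from 517.1 to 1180.7 in thymocytes. Il7r of the mature single-positive list ranged from 187.2 to 1461.9 in tumours and from 197.2 to 320.4 in thymocytes. No marker was at the floor on all arrays. The part of these shifts in the differences of Ltb, Birc3, Traf1, Lta, Ccr7 and Cxcl13 was not tested. Ikzf1, the gene that carries the IkL allele, ranged from 151 to 388 in tumours, against 560 and 264 in IkL/L thymocytes, against 626 and 401 in WT thymocytes, but the position of its probes relative to the allele is not known here, so this checks no label.

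The probe sets whose profile over the 10 arrays was most like that of each called member, by the mean absolute difference of log2 values centred on their own mean, were as follows. For Ltb they were Nat2 (0.348), Ypel3 (0.352) and Rag2 (0.376), the last a gene of antigen-receptor recombination in immature thymocytes. Nat2 passed the filter only through thymocytes, and its tumour median of 17.9 was near the floor. For Birc3 they were Etnk1 (0.116), Sun2 (0.137) and Sema7a (0.138). For Traf1 they were Tes (0.319), S100a10 (0.353) and Krt18 (0.400), the last an epithelial keratin. The Traf1 profile is flat over the tumours because all of them were set to the floor. Tes and Krt18, like Traf1, passed the filter only through thymocytes, so this likeness does not show which cells held Traf1 RNA.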

How the data were processed

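RNA of 10 samples was hybridized to MG_U74Av2 arrays, 6 of thymic tumours, 2 of IkL/L thymocytes and 2 of WT thymocytes, grouped by their titles. The intensity values are those the authors deposited, and the software and build behind them are not given in the sources used here. Their trimmed mean was 300.2 on each array, so they had been scaled by the authors. The scanner records deposited beside them gave lot, day and module, and runs were separated where hybridization times lay over 10 minutes apart. Probe sets were named from GEO's platform annotation: of 12488, 10855 had 1 symbol, 396 several and 1237 none, and 10839 matched a RefSeq table of GRCm38.p6.

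After removal of 66 control probe sets, intensities under 16 were set to 16 and log2 was taken. Between 15.4% and 24.2% of the values of an array lay under this floor. Probe sets above the array median on at least 2 arrays were fitted with limma (version 3.58.1, under R 4.3.3) in a single model of the 10 arrays that had a mean for each group, and p-values were adjusted over all tested. The script was tested on simulated data. The 24 alternative fits changed the filter, floor, pseudocount (32), normalization, variance trend, arrays and batch blocks. The named genes are all probe sets of the members, the 3 tested genes of each pathway class with the smallest p between tumours and all thymocytes, and the 3 probe sets most like each called member. The members and gene lists were chosen with earlier results of these data known. No array was a duplicate of another by identical values. A protein sequence table, and promoter entries of Nfkb1 and Relb, were not used here.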

Additional observations from a re-analysis of the deposited data

Results flagged for a closer look

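Among the 6 tumours, 26 sets of values were examined for a sample far from the others by Dixon's criterion, which flags about 1 in 20 sets by chance, and 2 stood out. Tnfsf11 was 248.8 in tumour 3, above 15.8 to 80.1 in the other tumours. Tnfrsf4 was 159.2 in tumour 2, above 22.8 to 53.7 in the other tumours.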

How the results depend on the processing

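Over the alternative fits of the 3 tumour comparisons, 22 to 24 for each difference, 2 of 565 refitted differences of members other than Rela changed sign. These were Nfkb2 against WT thymocytes with module as a block (0.0499) and Relb against WT thymocytes without WT array 1 (0.22; range over single arrays left out -0.64 to 0.22). None of 210 did so for Traf1, Ltb and Birc3, but the filter had fixed the direction of Traf1, which is also among the 565. Of the 210, 114 were refits of the 5 called differences, of which 30 lost the call, and 96 were refits of the 4 that were not called, of which 15 gained one. Among the called differences, that of Birc3 lost the call in 15 of 23 refits and that of Ltb in 4 of 23. The other called differences were those of Traf1. The causes were not tested. In the counts that follow, the day block without tumour 6 leaves tumour 4 as the only tumour set against thymocytes. Calls gained under it therefore rest on 1 tumour array. The lot block and lot 1 leave tumour 6 alone in the same way, and the run block rests on tumours 4 and 6 and WT array 1.

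Member calls against all thymocytes (3) were 1 with lot as a block, 0 with run as a block or within lot 1 or day 1, 5 with day as a block without tumour 6 (chosen after seeing the data), and 2 to 3 when single arrays were left out. Against WT thymocytes (1) they were 2 with the pseudocount, higher floor, quantile normalization, variance trend or day block without tumour 6, 0 with the run block or within lot 1 or day 1, and 1 to 2 without single arrays. Against IkL/L thymocytes (1) they were 2 with the pseudocount, higher floor, quantile normalization or day block without tumour 6, 0 with the lot or run block or within lot 1 or day 1, and 1 to 2 without single arrays.

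Pathway calls against all thymocytes (10) were 6 without the filter, 5 with module, 3 with day and 0 with lot or run as a block, 2 within lot 1 or day 1, and 5 to 11 without single arrays. Against WT thymocytes (5) they were 0 without the filter or with lot, module or run as a block, 1 with only the groups compared, the day block or lot 1, 2 within day 1, and 0 to 6 without single arrays. Against IkL/L thymocytes (3) they were 5 with the pseudocount, quantile normalization, variance trend or day block without tumour 6, 1 without the filter, with the day block or within lot 1, 0 with lot, module or run as a block, and 0 to 8 without single arrays. Between IkL/L and WT thymocytes both counts were 0 throughout.

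Rela turned against WT thymocytes with module as a block (0.17), and its range over single arrays left out was -0.27 to 0.17. Against all thymocytes it turned with module as a block (0.030), and that range was -0.12 to 0.096. Against IkL/L thymocytes it turned with quantile normalization (-0.034), lot block or lot 1 (-0.30), day block or day 1 (-0.13), module (-0.11) or run (-0.57) block, and the range was -0.13 to 0.17. Between IkL/L and WT thymocytes it turned with quantile normalization (0.0099), module (0.28) or run (0.15) block, and the range was -0.29 to 0.15. There Nfkbia probe set 104149_at also turned with module as a block (-0.23), with a range of -0.095 to 0.39, and without IkL/L array 2 so did Traf1 (0.028, range -1.15 to 0.028) and Ltb (-0.059, range -0.059 to 0.24). In the pathway list, with the lot block or lot 1 alone, Cd70 was 0.14, Tnfsf11 -0.25 and Prkcq 0.021, and Ikbkb was -0.017 with the day block or within day 1 and -0.043 with the day block without tumour 6.

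The whole-table count ranged from 9 to 250 against WT, 0 to 376 against IkL/L, 1 to 764 against all thymocytes and 0 to 15 between the thymocyte groups. Traf1 was not tested with the stricter filter. No paired analysis was possible because the labels give the arrays no numbers that the groups share.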
